A study of Mus musculus with 3 samples.

Results

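Collagen genes were followed in whole mouse skin before and after cyclophosphamide, an alkylating drug used against tumours and known for causing hair loss. A UniGene cluster, the unit by which the deposited tables list genes, was taken when its symbol was Col, a number, a and a number, by its description or by exact match of its tags to reference transcripts. This rule found 39 clusters of 38 genes among the 20595 clusters of the 3 tables, with Col1a1 split over 2 clusters. By chain type these were 11 fibrillar genes, 6 type IV (basement membrane) genes and 21 other collagen genes. Of the 44 collagen genes of the reference annotation, Col6a4, Col9a1, Col9a2, Col10a1, Col19a1 and Col22a1 were in no table.

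Male C57BL/6 mice, 2 months old, were depilated 9 days before injection so that hair growth was active. The untreated group (day 0) had no drug, and the other groups were taken 1 and 2 days after 150 mg/kg cyclophosphamide given into the peritoneum (the design text gives the dose per kg, whereas the labels of the samples have per km). All groups were therefore depilated, and each comparison joins the drug with 1 or 2 further days since depilation, which cannot be told apart. There was 1 library per group, so each test below compares 2 libraries, not 2 conditions, and no difference has a replicate check. The labels do not say how many mice went into a library.

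Collagens are triple helices of 3 chains. Fibrillar collagens (types I, II, III, V, XI, XXIV and XXVII) build the banded fibres of the dermis, in which type I is the main component, type III is abundant and type V limits fibre diameter. Type IV collagen forms the sheet-like network of basement membranes under epidermis and around vessels, muscle fibres, fat cells and nerves. The other collagens decorate fibres (XII, XIV, XVI), form beaded microfilaments (VI), lie at the edge of basement membranes (XV, XVIII), anchor the epidermis (VII) or span the cell membrane (XVII, XXIII).

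The assay counts 1 tag of 21 bases per transcript, CATG and the 17 bases after it, so levels need no division by transcript length. A transcript held by its poly(A) tail gives a tag from the CATG nearest its 3' end. A tag from a CATG further upstream can come from a transcript with an earlier end or from a downstream site that was not cut, and the counts cannot tell these apart. The tags shown are the most abundant ones of the 2 most abundant genes of each class, followed by those on which a difference in level or in CATG site rested. Capitals mark the CATG at which each tag starts, and sites are numbered from the 3' end of the cluster.
Col1a2, site 1: CATGgttccaaagaagtcttg
Col1a1, site 2: CATGgaccagcagactggcaa
Col4a2, site 1: CATGgctctagccaaacccac
Col4a1, site 1: CATGgtgtctgataatgagcc
Col6a1, site 1: CATGgctcccccacattcccc
Col17a1, site 1: CATGgcttccacacaccatcc
Col1a2, site 3: CATGtcttctatgcatctaca
Col3a1, site 1: CATGccacaggatcttctctt
Col15a1, site 1: CATGtaagaacataaagacat
Col15a1, site 2: CATGctgtagagttctgcgtg
Col18a1, site 1: CATGaagcacttgtcctatga

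These 11 tags were placed on GENCODE M21 transcripts (GRCm38). On the plus strand, the Col1a2 tags of sites 1 and 3 are at chr6:4541408-4541428 and chr6:4540772-4540792, both in the 3' UTR (exon 52 of 52), 116 and 752 bases from the transcript end. The Col1a1 tag is at chr11:94951223-94951243 (plus strand) in coding exon 50 of 51, and the deposited table calls it site 2. The Col3a1 tag of site 1 is in the 3' UTR at chr1:45349527-45349547 (plus strand). Col4a2 lies at chr8:11449080-11449100 (plus strand) and Col4a1 at chr8:11198907-11198927 (minus strand), both in the 3' UTR. The genes of these 2 chains start head to head and overlap at their starts, away from the tags. Also in 3' UTRs are Col6a1 at chr10:76708842-76708862, Col17a1 at chr19:47646492-47646512 and Col18a1 at chr10:77052345-77052365, all on the minus strand. The Col15a1 tags of sites 1 and 2 lie in its 3' UTR at chr4:47313135-47313155 and chr4:47312855-47312875 (plus strand). Each of the 11 matches transcripts of 1 gene only.

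Collagens gave 9664, 7434 and 9499 of the 2731787, 2859653 and 2636804 tags assigned to clusters at days 0, 1 and 2. Levels are CPM, counts per 1000000 tags after TMM scaling. All 8 fibroblast markers and all 6 basal keratinocyte markers were listed, while Matn1, Comp, Cnmd and Hapln1 of the 6 cartilage markers were not. Of the 39 collagen clusters, 28 reached 15 tags over the 3 libraries and were tested (9 fibrillar, 4 type IV and 15 other), and 18 reached 20 CPM in at least 1 library. The 11 clusters not tested had at most 8 tags in any library (Col2a1, Col4a4, Col4a6, Col6a5, Col11a2, Col13a1, Col20a1, Col24a1, Col25a1, Col26a1 and Col28a1). No tag is listed with fewer than 2 copies, and a cluster missing from a table may still have had a single one.

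Collagen mRNA as a whole was lower in the day 1 library, and the fibrillar class carried that difference. Summed collagen tags stood at 3435 CPM at day 0, 2764 at day 1 and 3489 at day 2. The fibrillar sum was 2416, 1524 and 2137 CPM, so that day 1 over day 0 was -0.67 on the log2 scale (95% interval -0.72 to -0.61) and day 2 over day 1 was 0.49 (0.43 to 0.55). Intervals here and below are exact and cover counting error only. Type IV went the other way, with 433, 518 and 524 CPM and a day 1 over day 0 log2 ratio of 0.26 (0.15 to 0.37). The remaining collagens summed to 586, 723 and 828 CPM, a log2 ratio of 0.30 (0.21 to 0.40) at day 1 and 0.50 (0.41 to 0.59) at day 2 over day 0.

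As a result of these opposite differences, the make-up of the collagen tags shifted. Fibrillar genes gave 70.3% of collagen tags at day 0 (Wilson 95% interval 69.4 to 71.2), 55.1% at day 1 (54.0 to 56.3) and 61.2% at day 2 (60.3 to 62.2). The type IV share was 12.6%, 18.7% and 15%, and that of the other collagens 17.1%, 26.2% and 23.7%. These shares need no scaling between libraries. A single chain, Col1a2, made up 43.3% of all collagen tags at day 0, 28.5% at day 1 and 31.2% at day 2, and Col1a1 11.9%, 13.2% and 13.9%.

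**Figure D1:**
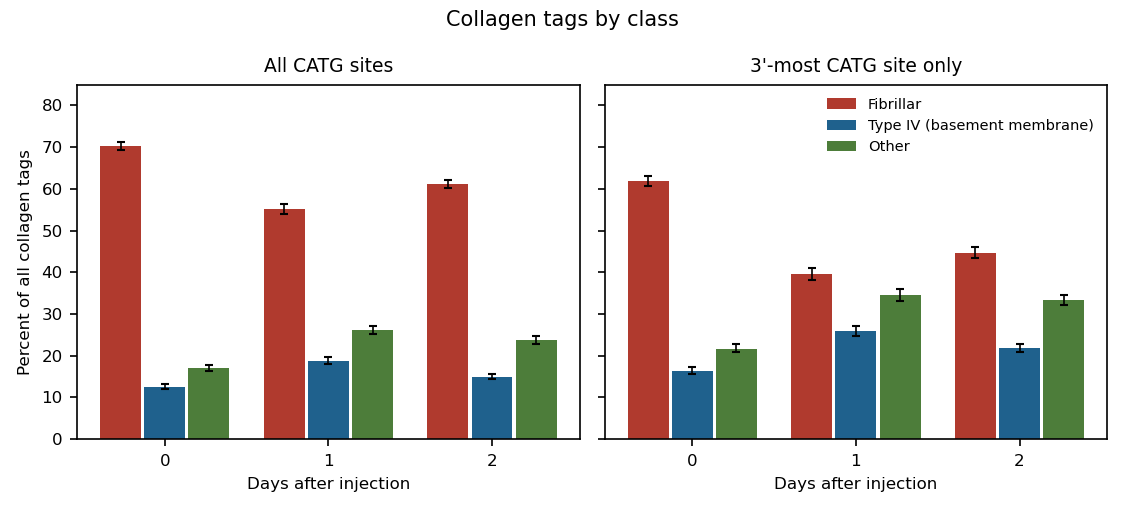
Percent of all collagen tags (y axis) from fibrillar, type IV and other genes in the library of each day (x axis), over all CATG sites (left) and over the 3'-most site alone (right), with Wilson 95% intervals for counting error. The fibrillar share is lowest at day 1 in both panels, at 55.1% and 39.6%, and highest at day 0, at 70.3% and 61.9%.

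The question of the first comparison is how skin 1 day after the drug differed from untreated skin. A cluster was called when its adjusted p was 0.001 or less and its ratio 2 or more (exact conditional binomial test, Benjamini-Hochberg over 13812 clusters), and a second rule used a ratio of 1.5. By the 2-fold rule 1 of 28 collagen clusters was higher, Col18a1, and 0 were lower, where 1.44% and 1.35% of all clusters were called higher and lower. By the 1.5-fold rule 2 were higher (Col18a1 and Col15a1) and 2 lower (Col1a2 and Col3a1), beside 4.08% and 3.7% of all clusters. Both lower clusters were fibrillar and both higher ones belonged to the basement membrane zone group. The median log2 ratio was -0.27 over the 9 fibrillar clusters (order-statistic interval -0.92 to -0.09), of which 8 had a ratio below 1. It was 0.30 over the 4 type IV clusters, 0.06 over the 15 others (-0.42 to 0.83) and -0.02 over all clusters tested. The median of the others turned to -0.01 when libraries were scaled by all kept tags and to -0.07 when scaled by assigned tags.

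Col1a2, the second chain of type I collagen, gave the most tags of any collagen gene in every library. Its level was 1487 CPM at day 0, 789 at day 1 and 1090.2 at day 2. The day 1 library was lowest, with a log2 ratio over day 0 of -0.92 (-0.99 to -0.84, adjusted p 2.1e-129 by the exact binomial test). Day 2 lay between the other libraries, at -0.45 (-0.52 to -0.38) over day 0 and 0.47 (0.39 to 0.55) over day 1, and passed the 1.5-fold rule in neither. Scaled by assigned tags, day 2 over day 1 was 0.60 and did pass. Col3a1, the chain of type III collagen, had 267, 146 and 242 CPM. Its day 1 over day 0 log2 ratio was -0.87 (-1.05 to -0.69, adjusted p 1.9e-21), and its day 2 over day 1 ratio 0.73 (0.55 to 0.92, adjusted p 3.4e-14).

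Over all sites, Col1a1, the partner chain of Col1a2 in type I collagen, moved less. The main Col1a1 cluster stood at 378, 338 and 433 CPM, with log2 ratios of -0.16 (-0.29 to -0.03, adjusted p 0.06 by the exact binomial test) at day 1 and 0.20 (0.07 to 0.32, adjusted p 0.0073) at day 2 over day 0. All tags of that cluster lay away from the 3'-most site. Away from that site Col1a2 was at -0.45 (-0.61 to -0.30) at day 1 and 0.25 (0.12 to 0.39) at day 2 over day 0. There were 3.63 Col1a2 tags per Col1a1 tag at day 0, 2.16 at day 1 and 2.25 at day 2, although the type I helix holds more Col1a1 chains than Col1a2 chains. The CATG nearest the end of the Col1a1 reference transcript has fewer than 21 bases left, so no tag from it could be placed. The most abundant Col1a1 tag lies at CATG 7 from that end. Col1a1 mRNA may be undercounted, which was not tested, and the tag ratio may not be the ratio of the mRNAs. The second Col1a1 cluster, made of 3' UTR tags, had 31.3, 27.5 and 51.4 CPM and was higher at day 2 than at day 1 by 0.90 (0.49 to 1.33, adjusted p 1.5e-04).

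The type V chains, which join type I in mixed fibres, were not called at day 1 and had their highest levels at day 2. Col5a1 stood at 74.3, 69.9 and 114 CPM and was higher by the 1.5-fold rule in day 2 over day 0 (0.62, 0.36 to 0.88, adjusted p 1.5e-05), a call that was lost on its most abundant tag alone (0.65). Col5a2 gave 106, 88.1 and 137 CPM, higher at day 2 than at day 1 by 0.64 (0.40 to 0.88, adjusted p 1.5e-06), a call lost on its few 3'-most tags (0.72). The third chain, Col5a3, had 25.95, 29 and 32.7 CPM and was not called. Col11a1, of type XI collagen, had its highest level at day 0, with 40.9, 32.0 and 26.1 CPM and a day 2 over day 0 ratio of -0.64 (-1.10 to -0.21, adjusted p 0.015). Col27a1 had 14, 6 and 16 tags. Cartilage collagen Col2a1 was not listed at day 0 and had 7 tags in each other library.

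**Figure D2:**
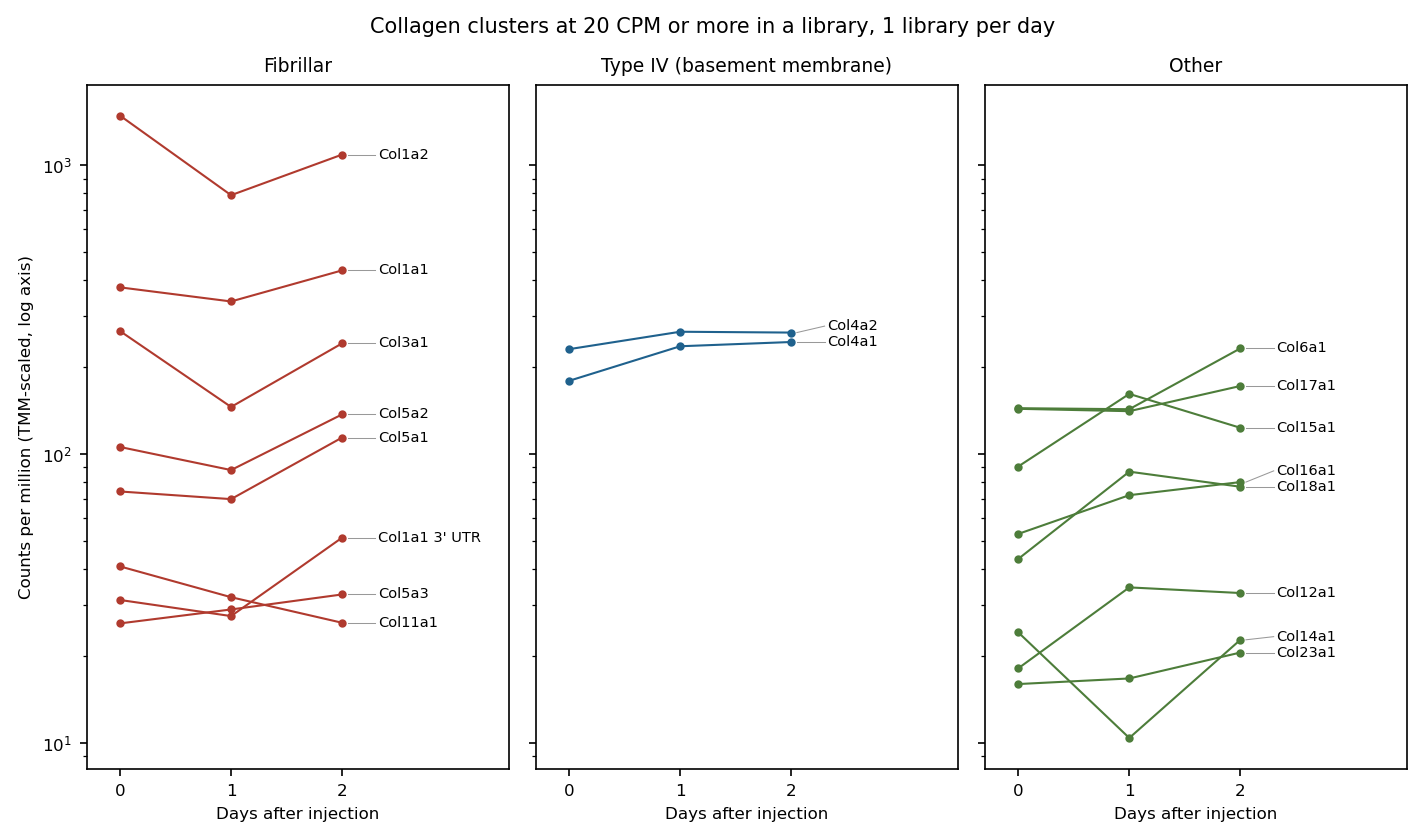
Level (y axis, CPM on a log scale) of the 18 collagen clusters at 20 CPM or more in at least 1 library, by days after injection (x axis), 1 library per day and 1 line per cluster. Col1a2 and Col3a1 dip at day 1, the pair Col4a1 and Col4a2 does not, and Col15a1 and Col18a1 peak at day 1.

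In type IV collagen, Col4a1 and Col4a2 are the chains found in nearly every basement membrane. Col4a2 had 231, 265 and 264 CPM and Col4a1 179.5, 236 and 245 CPM. Col4a1 was 0.40 higher at day 1 (0.23 to 0.57, adjusted p 5e-05) and 0.45 higher at day 2 than at day 0 (0.28 to 0.62, adjusted p 1.9e-06), short of a 1.5-fold ratio. On its 3'-most tags alone Col4a1 passed that rule at day 2 (0.60, 0.41 to 0.79), while its other sites were at -0.24 (-0.64 to 0.16). Col4a2 differed by 0.20 (0.05 to 0.36, adjusted p 0.051) and 0.19 (0.04 to 0.35, adjusted p 0.054). The 2 chains, made from a shared promoter region, stood at 1.29, 1.12 and 1.08 Col4a2 tags per Col4a1 tag. Col4a5, a chain of a more restricted network, had 19.55, 11.2 and 10.3 CPM (day 2 over day 0 -0.91, -1.64 to -0.25, adjusted p 0.026), opposite in direction to Col4a1. Col4a3 had 5, 8 and 11 tags.

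Among the other collagens, the multiplexins Col18a1 (both days) and Col15a1 (day 1) were the basement membrane zone members higher than at day 0 by the 1.5-fold rule, and Col7a1 and Col17a1 were not called. Col18a1, whose C-terminal fragment is endostatin, had 43.4 CPM at day 0, 87.0 at day 1 and 77.1 at day 2. Its log2 ratio was 1.00 at day 1 (0.68 to 1.33, adjusted p 5.1e-09) and 0.83 at day 2 over day 0 (0.50 to 1.16, adjusted p 3.9e-06). The day 1 value sits at the 2-fold limit: it was 0.93, 0.87 and 0.95, and not called, when libraries were scaled by all kept tags, by tags assigned to clusters or without keratin and muscle genes. The 2-fold call was also lost when a coefficient of variation of 0.2 or 0.4 between libraries was assumed. Col15a1, the other multiplexin, stood at 90.6, 162 and 123 CPM, higher at day 1 by 0.83 (0.61 to 1.06, adjusted p 3.3e-12). At day 2 over day 0 Col15a1 was at 0.44 (0.21 to 0.69) and not called. On its 3'-most tags alone it passed the 1.5-fold rule at day 2 as well (0.61, 0.36 to 0.87). Col7a1, which forms the anchoring fibrils under the epidermis, had 20, 36 and 48 tags and a day 2 over day 0 ratio of 1.29 (0.53 to 2.14, adjusted p 0.0032), which missed the adjusted p asked for. Col17a1, the transmembrane collagen of hemidesmosomes in basal keratinocytes, was the second most abundant member of this class at day 0, with 144, 141 and 172 CPM and no call.

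Col6a1, a chain of the type VI microfilaments, differed only at day 2. Its level was 144 CPM at day 0, 143 at day 1 and 233 at day 2. Day 2 exceeded day 0 by 0.69 (0.51 to 0.87, adjusted p 9.6e-13) and day 1 by 0.70 (0.51 to 0.89, adjusted p 1.2e-12). The chains with which it assembles were far lower in tags: Col6a2 had 23, 28 and 30 tags, and Col6a3 51, 22 and 31 tags. Whether the mRNAs of these chains stand in the ratio of their tags was not tested. Neither was called, and Col6a3 had a day 1 over day 0 ratio of -1.13 (-1.94 to -0.40, adjusted p 0.011). Col6a6, a chain that can replace Col6a3, had 10, 7 and 6 tags.

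Fibril-associated collagens did not share 1 pattern. Col16a1 had 53.0, 72.1 and 80.1 CPM and was higher at day 2 than at day 0 by 0.59 (0.29 to 0.91, adjusted p 7.4e-04), just past the 1.5-fold limit. The Col16a1 call was lost on 3'-most tags alone (0.60) and with no minimum of tags. Col12a1 stood at 18.1, 34.6 and 33.1 CPM, with ratios over day 0 of 0.92 (0.42 to 1.45, adjusted p 0.0018) and 0.86 (0.36 to 1.39, adjusted p 0.0036), neither called. Col14a1 had the opposite values, 24.2, 10.4 and 22.8 CPM, and a day 1 over day 0 ratio of -1.20 (-1.91 to -0.56, adjusted p 0.0012). That adjusted p lies just above the limit, and Col14a1 was called lower under 3 of the 4 other scalings. Col23a1, a transmembrane collagen, had 16.0, 16.7 and 20.6 CPM. The 10 tested clusters under 20 CPM reached between 3.55 and 19.55 CPM, and no comparison called any of them by either rule. They include the short-chain genes Col8a1 with 13, 19 and 16 tags and Col8a2 with 17, 15 and 14 tags, and Col9a3 with 9, 6 and 14 tags. The main tag of Col8a1 matches another, overlapping reference gene, so its counts are uncertain.

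**Figure D3:**
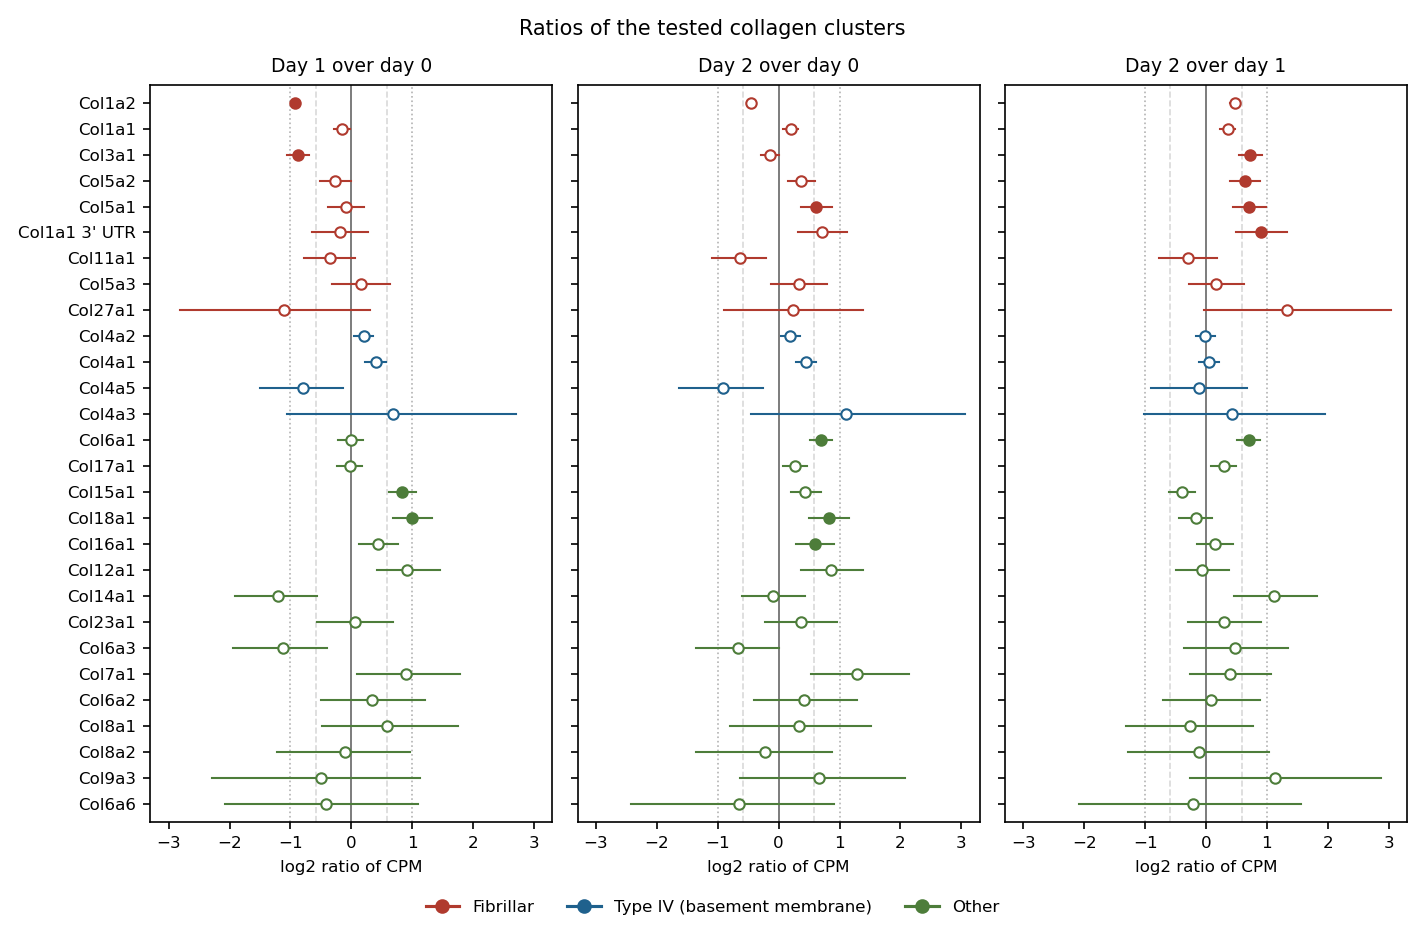
Log2 ratios of CPM (x axis) of the 28 tested collagen clusters (y axis) in 3 comparisons, coloured by class, with exact 95% intervals for counting error. Filled points passed the 1.5-fold rule, dotted lines mark 2-fold and dashed lines 1.5-fold. Filled points in day 1 over day 0 are Col1a2 and Col3a1 on the lower side and Col15a1 and Col18a1 on the higher side.

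For day 2 over day 0, 0 of 28 collagen clusters passed the 2-fold rule in either direction, where 3.41% of all clusters were higher and 3.03% lower. The 1.5-fold rule called 4 higher (Col6a1, Col18a1, Col5a1 and Col16a1) and 0 lower, beside 5.71% and 6.18% of all clusters. Medians were 0.23 for the fibrillar clusters (-0.45 to 0.62), 0.32 for type IV and 0.42 for the others (-0.09 to 0.69), against 0.01 over all clusters. For day 2 over day 1, 0 clusters passed the 2-fold rule, beside 1.8% and 1.1% of all clusters. By the 1.5-fold rule 5 were higher (Col3a1, Col5a1, Col5a2, the 3' UTR cluster of Col1a1 and Col6a1) and 0 lower, beside 3.45% and 3.11%. Of these 5, 4 were fibrillar, and the fibrillar median was 0.64 (0.17 to 0.90) against 0.02 for type IV, 0.15 for the others and -0.02 over all clusters. The comparisons share libraries, so the day 1 library enters both the lower fibrillar values at day 1 and the higher ones at day 2.

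The classes are described next by the CATG site of their tags, with no test of the difference between classes. The 3'-most site gave 60.1% of fibrillar tags at day 0, 47.3% at day 1 and 45.9% at day 2. In type IV genes it gave 89.0%, 90.9% and 91.4%, in the others 87.0%, 87.0% and 88.5%, and over all clusters 69.1%, 71.1% and 69.7%. A class share also varies with the mix of genes. Of the 6798, 4098 and 5818 fibrillar tags, Col1a2 gave 4184, 2121 and 2968. The main Col1a1 cluster, with 0 tags at the 3'-most site, gave 1064, 909 and 1179. Coding sequence held 24.4%, 33.3% and 31.3% of fibrillar tags, compared with at most 0.9% of type IV tags. The fibrillar genes differed in this. Nearly all tags of the main Col1a1 cluster were coding ones, whereas the most abundant tags of Col5a1, Col5a2, Col5a3 and Col11a1 lay in the 3' UTR. Each gene's share of 3'-most tags was compared between libraries by Fisher's exact test. Benjamini-Hochberg adjustment was over clusters with 2 or more sites and at least 50 tags in both libraries. Not all of the 28 collagen clusters tested for level met this limit. The main Col1a1 cluster met it but, with 0 tags at the 3'-most site, could not be called. For day 1 over day 0 the share was lower in 2 collagen genes, Col1a2 and Col3a1, and higher in 0, beside 1.18% and 0.664% of all clusters. For day 2 over day 0 it was again lower in these 2 and higher in Col15a1, beside 1.26% and 1.24%. For day 2 over day 1 no collagen gene was called, beside 0.0951% of all clusters lower and 0.589% higher.

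In Col1a2 the 3'-most share went from 79.8% at day 0 to 72.2% at day 1 (adjusted p 2.6e-09) and 67.2% at day 2 (adjusted p 3.8e-30). The tag of site 1 had 3318 copies at day 0, 1527 at day 1 and 1988 at day 2, while that of site 3 had 459, 366 and 662. Site 1 was thus 1.05 lower on the log2 scale at day 1 (-1.14 to -0.97 as a log2 ratio) and remained lower at day 2, with a log2 ratio of -0.69 (-0.77 to -0.61). Site 3 was at -0.26 (-0.46 to -0.06) at day 1 and 0.58 (0.40 to 0.75) at day 2 over day 0, on the other side of its starting level. The coding tag of site 4 had 274, 168 and 214 copies. Site 2, between the main ones, had 66, 22 and 43.

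Of the tested Col3a1 tags, the one nearest the end was the most reduced at day 1. This site 1 tag had 470, 151 and 288 copies, a log2 ratio of -1.57 (-1.85 to -1.31) at day 1 and -0.66 (-0.88 to -0.44) at day 2 over day 0. Site 2, the next from the end, had 3, 4 and 10 copies. The 3'-most share was 62.6%, 38.5% and 44.0% (adjusted p 3e-12 for day 1 and 8e-10 for day 2). Away from the 3'-most site, Col3a1 summed to 99.9, 89.6 and 136 CPM, a day 1 over day 0 ratio of -0.16 (-0.41 to 0.10).

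**Figure D4:**
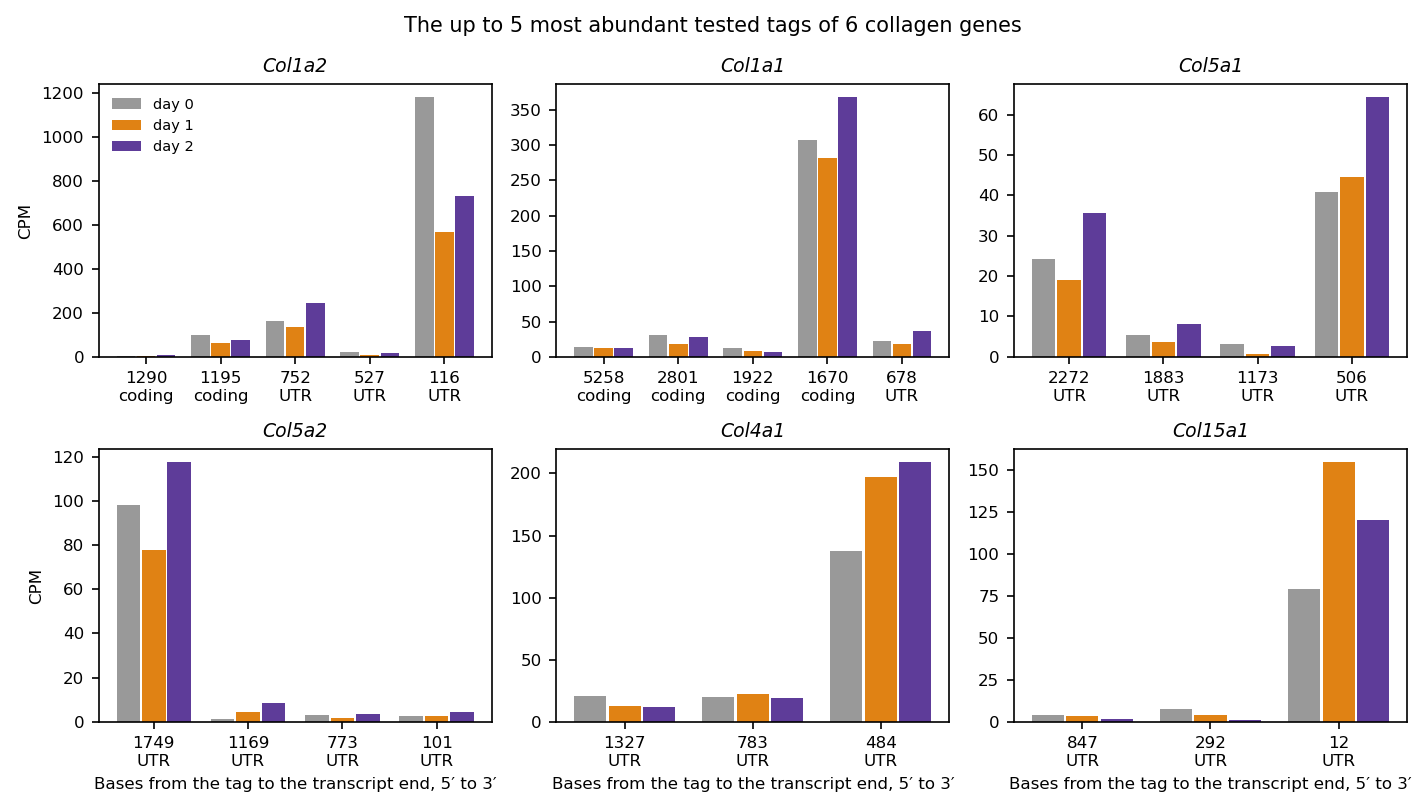
Level (y axis, CPM) in the libraries of days 0, 1 and 2 of the most abundant tested tags, up to 5 a gene, of Col1a2, Col1a1, Col5a1, Col5a2, Col4a1 and Col15a1, placed from 5' to 3' by the number of bases between the tag and the transcript end (x axis), with the tag's region below. In Col1a2 the tag nearest the end (116 bases) is highest at day 0, whereas that at 752 bases is highest at day 2.

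The 3' UTR of Col1a2 was searched for the hexamers AATAAA and ATTAAA, the letters of common polyadenylation signals, on the sense strand between each tag's CATG and the next. The 221 bases after site 3 held 3 copies of AATAAA, the first 192 bases past the CATG and the last 2 overlapping. The 133 bases from site 1 to the transcript end held 3 as well. Windows of the same length and distance from the end held either hexamer in 15.6% of 20560 protein-coding genes for site 3 and in 76.0% of 21840 for site 1. The windows after sites 2 and 4 of Col1a2 held 0 and 1. In Col3a1 the window after site 1 held 2, where 77.4% of genes held either hexamer. None of the Col3a1 windows examined further upstream held any. Col15a1, Col1a1, Col5a2 and Col18a1 were searched as well. The windows after sites 1 and 2 of Col15a1 and after the main Col1a1 tag held 0. Those after sites 11 and 6 of Col5a2 held 2 each, and that after site 1 of Col18a1 held 1. The Col1a2 stretches below are shown because each follows 1 of the tags that moved differently, and capitals mark the hexamers.
Col1a2 after site 3, chr6:4540962-4540991 plus strand: caAATAAAaattgaaaAATAAAATAAAaag
Col1a2 after site 1, chr6:4541484-4541513 plus strand: taAATAAAttgtgaaaAATAAAATAAAgca

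Both stretches, 30 bases each, are identical at 23 positions, which include all the hexamer letters around which the stretches were chosen. A match of letters does not show that a transcript ends there, and ends were not measured.

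Col15a1 went the other way, with a 3'-most share of 87.1%, 95.6% and 97.9% (adjusted p 1.6e-05 for day 2 over day 0). Its site 1 tag, 12 bases from the transcript end, had 222, 416 and 327 copies, while its site 2 tag had 22, 10 and 2 copies. The 2 type IV chains kept nearly all their tags in the 3' UTR. Col4a1 had 76.6%, 83.5% and 85.4% of its tags at site 1, which did not pass the limit (adjusted p 0.0039 for day 2 over day 0), and Col4a2 98.6%, 97.9% and 97.4%. The Col1a1 main cluster had 0 tags at the site the tables number 1, and 863, 760 and 1001 of its tags were the one in coding exon 50. In Col18a1 the share was 91.8%, 91.9% and 91.9%, and its site 1 tag had 112, 215 and 193 copies.

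Tested as single tags by the 2-fold rule, 71 of the 186 listed collagen tags had enough copies. At day 1 over day 0, 1 was higher (site 1 of Col18a1) and 3 were lower (sites 1 and 2 of Col1a2 and site 1 of Col3a1), beside 1.33% and 1.37% of all tags. For day 2 over day 0, 1 tag was higher and 1 lower, beside 2.55% and 2.65%. The higher one was a 3' UTR tag of Col5a2 (site 6) with 3, 12 and 23 copies, 1169 bases from the transcript end, while the main Col5a2 tag (site 11) had 276, 209 and 320. The lower one was site 2 of Col15a1 (-3.13, -6.55 to -1.39, adjusted p 5.4e-04). Between days 1 and 2, 1 was higher at day 2 and 0 lower, beside 1.3% and 0.938%, namely the 3' UTR tag of Col1a1 with 48 copies at day 1 and 98 at day 2.

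How far the fibrillar class depended on its leading chain was examined with alternatives chosen after seeing the data. Without Col1a2 the fibrillar sum was 929, 735 and 1047 CPM, and without Col1a2 and Col3a1 662, 589 and 805 CPM. The day 1 over day 0 ratio was then -0.34 (-0.42 to -0.25) and -0.17 (-0.27 to -0.07), nearer 0 than the -0.67 of the whole class. The day 2 over day 0 ratio, -0.18 for the whole class (-0.23 to -0.13), turned to 0.17 (0.09 to 0.25) and 0.28 (0.19 to 0.37). Leaving out 3'-most tags instead gave -0.27 (-0.35 to -0.18) at day 1 and 0.26 (0.19 to 0.34) at day 2. The direction at day 2 thus depended on Col1a2 and on the 3'-most tags, whereas the day 1 sum was below day 0 under each of these alternatives.

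Genes that act on collagen were described from lists of enzymes and partners, by the 2-fold rule. Counts in these lists stand beside shares of all clusters of 1.44% higher and 1.35% lower for day 1 over day 0, 3.41% and 3.03% for day 2 over day 0, and 1.8% and 1.1% for day 2 over day 1. In hydroxylation, glycosylation and folding, 15 clusters were tested. At day 1, 0 were higher and 1 lower than at day 0, namely Ppib, an endoplasmic reticulum prolyl isomerase that folds collagen, at 642 and 301 CPM (log2 ratio -1.09, -1.21 to -0.97, adjusted p 1.1e-74). The list median was -0.34 at day 1 and 0.13 at day 2 over day 0. P4hb, a subunit of prolyl 4-hydroxylase, had 569, 505 and 544 CPM and no call. Plod2, a lysyl hydroxylase that sets cross-links, was the single call at day 2 over day 0, with 8.18 and 24.6 CPM (1.57, 0.89 to 2.34, adjusted p 1.8e-05).

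Of 7 tested clusters of procollagen processing, Pcolce2, an enhancer of the C-proteinase, was higher at day 1 (23.8 to 55.0 CPM, log2 ratio 1.20, adjusted p 1e-07) and at day 2 (56.9 CPM, 1.25, adjusted p 1.2e-08) than at day 0. The larger of 2 clusters of Adamts2, the N-proteinase of types I and III, was higher at day 2 (29.1 to 59.9 CPM, 1.03, adjusted p 8e-07), the smaller had 7, 5 and 7 tags, and 0 were lower. Bmp1, the C-proteinase, had 113, 74.7 and 84.1 CPM and no 2-fold call. Among 9 receptor and uptake clusters, Ddr2, a kinase receptor for fibrillar collagen, had 53.7, 59.1 and 131 CPM. It was higher at day 2 than at day 0 (1.29, 1.01 to 1.57, adjusted p 3.4e-20) and day 1 (1.15, 0.88 to 1.43, adjusted p 2.6e-16), and no member was called at day 1. Ddr1, its relative in epithelia, had 116, 162 and 134 CPM and no call.

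Of 14 basement membrane partners, 2 were higher and 0 lower at day 1 over day 0, beside 1.44% and 1.35% of all clusters. Among these was Lama3, a laminin chain of the epidermal basement membrane. Lama3 went from 23.5 to 51.7 CPM (1.13, 0.71 to 1.58, adjusted p 1.1e-06). Day 2 also called these 2 higher than day 0 (3.41% of all clusters), with Lama3 at 47.4 CPM (1.01, adjusted p 2.5e-05). Hspg2, the basement membrane proteoglycan perlecan, had 66.8, 36.4 and 45.5 CPM and a day 1 ratio of -0.87 (-1.24 to -0.52), short of 2-fold. Frem2 was called at day 2 over day 1 with 6 and 31 tags. The list median was -0.05 at day 1 and 0.22 at day 2 over day 0.

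Markers of the cells that make or neighbour these collagens were measured beside them. The 8 fibroblast markers, all tested, summed to 2046 CPM at day 0, 1321 at day 1 and 2702 at day 2. At day 1 over day 0, 1 of the 8 was lower (Vim, 521 to 72.5 CPM) and 0 higher, beside 1.35% and 1.44% of all clusters. The median was -0.37, and without Vim the sum was 1525, 1248 and 2368 CPM. Thy1 went the other way at day 1, at 0.60 (adjusted p 1.3e-08), as did Pdgfra at 0.36 (adjusted p 0.41). At day 2 over day 0, 3 were higher (3.41% of all clusters), Pdgfra (1.31), Lum (1.16) and Thy1 (1.14), while Vim was at -0.64. The part of fibroblast number in the fibrillar values was not tested, and fewer cells of a type and less RNA per cell cannot be told apart in whole skin.

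Skeletal muscle markers, whose fibres are wrapped in type IV and VI collagen, summed to 8151, 12570 and 17408 CPM, with 5 of 10 clusters higher at day 1 (1.44% of all clusters) and 6 at day 2 over day 0 (3.41%). The 6 basal keratinocyte markers summed to 5935, 6604 and 7296 CPM and the 5 Schwann cell markers to 146, 195 and 209.0 CPM. The 6 adipocyte markers summed to 3931, 2895 and 2242 CPM and the 7 endothelial markers to 129, 107 and 145 CPM. Most adipocyte tags were those of Fabp4 (3346 to 2197 and 1708 CPM), while Lep had log2 ratios of 1.47 at day 1 and 1.66 at day 2 over day 0, called at day 2. The adipocyte list median at day 1 was 0.22, with 4 clusters up and 4 down. Nor did the 5 tested endothelial clusters move together, with 2 up and 3 down at day 1 and a median of -0.15. Egfl7 had 58.3, 30.1 and 27.9 CPM, and Tie1 5.69, 14.9 and 17.6 CPM. At day 2 over day 0, Tie1 was called higher (1.60) and Egfl7 lower (-1.06), beside 3.41% and 3.03% of all clusters. Macrophage markers had 257, 274 and 581 CPM over the 7 listed of 8. Of cartilage markers Sox9 was tested, at 120.2, 91.8 and 90.0 CPM. Whether any of these cell types carried the collagen differences was not tested.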

How the data were processed

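Each library was made from whole-skin RNA bound to oligo(dT), cut with NlaIII at CATG and trimmed by MmeI, per the labels' protocols. The deposited tables give, per the file headers, a tag count per UniGene cluster, TPM values (the same counts per 1000000 tags the authors kept; not used for tests), and each tag with its copy number and CATG site. No source used here names the aligner, the UniGene build or the genome build. The tables hold 45.3%, 47.1% and 46.5% of kept tags.

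Clusters were named by exact sense-strand match of tags to GENCODE M21 transcripts (GRCm38). Counts were scaled by TMM (edgeR 4.0.16; factors 1.03, 0.94 and 1.03). With 1 library per group, edgeR's quasi-likelihood test could not be used. Instead, 13812 clusters were compared by an exact conditional binomial test (two-sided), those with 15 or more tags over the 3 libraries, as were 22398 single tags, with Benjamini-Hochberg adjustment. Log2 ratios of single clusters and tags carry a pseudocount of 0.5 tags; those of sums and site groups carry none. Site shares were compared by Fisher's exact test (scipy 1.17.1). The count and site-share tests were tried on simulated counts that held counting error only. Those counts had no spread between libraries, so they do not show how the tests behave with variation between mice. PCR copies were not marked, so intervals cover counting error only.

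The members, classes and lists were chosen with earlier results of these data known. Named were all collagen clusters at 20 CPM or more or called, and, from other lists, called genes, at most 4 a comparison. After their values were seen, collagens under 20 CPM were named, and so were P4hb, Bmp1, Ddr1, Hspg2, Frem2, Sox9, Fabp4, Lep, Vim, Pdgfra, Thy1, Tie1 and Egfl7 where not called. Alternatives covered scaling (DESeq2 1.42.0 size factors among them), minimum count, pseudocount, tag choice, class definition and assumed variation. Results for 1 collagen tag and 1 basement membrane partner are not reported here.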

Additional observations from a re-analysis of the deposited data

How the results depend on the processing

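The log2 ratio of each single called gene kept its direction under every alternative it was computed for. Of the summary values, 186 stayed within their limits and 48 moved. Those that changed direction included the median of the other collagens at day 1 over day 0 and the fibrillar sum at day 2 over day 0. Col5a1 at day 2 over day 1 was not called by the 1.5-fold rule on 3'-most tags (0.54) or its most abundant tag (0.52). Higher calls at day 1 over day 0 by the 2-fold rule numbered 1, and 0 when scaled by all kept tags, by assigned tags or without keratin and muscle genes, 0 with an assumed coefficient of variation of 0.2 or 0.4 (adjusted p of 0.05), 2 with tags of 1 reference gene only (Col12a1 added) and 2 by the 1.5-fold rule. Lower calls, 0, became 1 under all kept tags and without keratin and muscle genes (Col14a1), 3 under assigned tags, 3'-most tags or the most abundant tag (Col1a2, Col3a1 and Col14a1) and 2 by the 1.5-fold rule. At day 2 over day 0 the 1.5-fold rule gave 4 higher. The 3' UTR cluster of Col1a1 joined these under all kept tags and without keratin and muscle genes. With 3'-most tags or the most abundant tag, Col4a1 and Col15a1 were added and Col16a1 was lost. Col5a1 was lost with the most abundant tag, and Col16a1 also with no minimum of tags. At day 2 over day 1, 0 higher calls became 1 under all kept tags, without keratin and muscle genes, with 3'-most tags or with the most abundant tag, 2 under assigned tags and 5 by the 1.5-fold rule. By the 1.5-fold rule, 3'-most tags and the most abundant tag each gave 2 lower calls at day 2 over day 0 in place of 0, and 3'-most tags gave 3 higher at day 2 over day 1 in place of 5, the most abundant tag 4 and assigned tags 7 (Col14a1 and Col1a2 added).

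Scaling by assigned tags moved the median of all clusters by -0.13 at day 1 over day 0 and by 0.13 at day 2 over day 1. The fibrillar sum at day 1 over day 0 was -0.74 by all kept tags, -0.80 by assigned tags, -0.34 without Col1a2, -0.17 without Col3a1 as well, -1.01 at the 3'-most site and -0.27 at the other sites. At day 2 over day 0 it was -0.57 at the 3'-most site and turned positive without Col1a2 (0.17), without both (0.28) and at the other sites (0.26). At day 2 over day 1 it was 0.60, 0.62 and 0.59 by all kept tags, assigned tags and without keratin and muscle genes. Beyond the construction of each alternative, the cause was not tested.

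With 3'-most tags alone, shares of collagen tags at days 0, 1 and 2 were 61.9%, 39.6% and 44.7% fibrillar, 16.4%, 25.8% and 21.8% type IV, and 21.7%, 34.6% and 33.4% other. With types VII, XV, XVII and XVIII added to the basement membrane class, that class held 20.9%, 33.3% and 26.2%, and the others 8.8%, 11.6% and 12.5%. Depth limits the genes under 20 CPM, whose intervals span 2-fold or more. No paired analysis was possible because each group has 1 library.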
